A study of Mus musculus with 12 samples.

Results

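Gene expression was compared by RNA sequencing between 2 groups of sorted mouse bone marrow cells that differ in the label of Tcf7, the gene of the transcription factor TCF-1. Of the 12 libraries of the series, 6 belong to this comparison and were chosen by their labels: 3 labelled NOTCHWT_TCFKO and 3 labelled NOTCHWT_TCFWT. The first came from mice given as Tcf7 lox/lox Mx1Cre, treated with poly(I:C) at 2 ug/g to induce Mx1Cre. The second came from mice given as wild type, which received a control injection of poly(I:C) at the same dose, so poly(I:C), an inducer of interferon, is common to both groups. The Mx1 promoter that drives Cre answers to interferon and is not restricted to blood cells. All mice had a mixed C57BL/6J; Sv/129 background, no age is given in the labels, and all libraries carry batch 1. Cells were sorted as Lin- Sca1+ cKit+ (LSK), the gate of haematopoietic stem cells and multipotent progenitors. The remaining 6 libraries, of groups labelled NICD_TCFWT and NICD_TCFKO, entered the fit and serve as side values. The groups of interest are called knockout-labelled and wild-type-labelled below, and each holds libraries 1, 2 and 3.

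TCF-1 is a DNA-binding protein of the TCF/LEF family. It is induced by Notch signalling in early T cell progenitors, where it opens and activates genes of the T lineage, and it can work with beta-catenin or with co-repressors of the Tle family. Resident macrophages of the bone marrow take up dying cells and ageing red cells and recycle their iron. They carry Vcam1, the scavenger receptors Cd163 and Mrc1 and the complement component C1q. They are mature cells, while the LSK gate selects immature ones.

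Totals ranged from 30453271 to 43790674 counts per library. Levels are given as CPM, read counts scaled to a common library size, in the order of libraries 1, 2 and 3. Changes are log2 fold changes ± SE, knockout-labelled minus wild-type-labelled, with p adjusted by Benjamini-Hochberg over 16024 genes in edgeR's quasi-likelihood test, where 0.05 was the threshold. The labels do not say whether the replicates are separate mice, so the tests measure the spread among these libraries, which may be technical.

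Tcf7 (ENSMUSG00000000782) lies on chromosome 11 of mm10 from 52252371 to 52283014. The wild-type-labelled libraries held 14.3, 10.5 and 19.6 CPM of it. It was at 0.819, 2.76 and 0.267 CPM in the knockout-labelled libraries, which did not overlap them. The change of -3.55 ± 0.68 passed the threshold (adjusted p = 0.00603) and followed the label. In the side groups Tcf7 went against its label, since NICD_TCFKO libraries held 297, 896 and 615 CPM and NICD_TCFWT libraries 5.05, 4.68 and 6.76 CPM. Directions are therefore given throughout as directions between libraries so labelled. Counts are per gene, and transcripts that keep the exons outside the deleted part would still be counted.

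Transcripts of Kit and Ly6a, which encode the positive markers of the gate, were present in both groups. RNA levels do not measure the purity of the sort. Kit, the stem cell factor receptor used in the sort, was at 764, 784 and 818 CPM in the wild-type-labelled and at 774, 684 and 978 CPM in the knockout-labelled libraries, and the groups overlapped. Ly6a, which encodes the Sca1 antigen of the same sort, was present in all 6 libraries but lower in the knockout-labelled ones, as given with the progenitor genes. The sexes were not balanced. Xist was at 3550 to 4600 CPM in the wild-type-labelled libraries with at most 0.0865 CPM of Y-linked transcripts, while knockout-labelled library 3 held 337 CPM of Y-linked transcripts and knockout-labelled library 1 held 154 CPM of them together with 2160 CPM of Xist. In total 1738 genes (10.8% of those tested) were higher and 1675 (10.5%) lower in the knockout-labelled libraries, 21.3% in either direction, with a median log2 fold change over all genes of 0.000941. At least a 2-fold change was seen for 1067 of the higher and 692 of the lower genes. Without wild-type-labelled library 1 the counts fell to 1118 and 1083, and without knockout-labelled library 1 the count of lower genes fell to 1008. Genes called in every one of the 6 fits that left out a library numbered 942 higher and 884 lower.

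**Figure D1:**
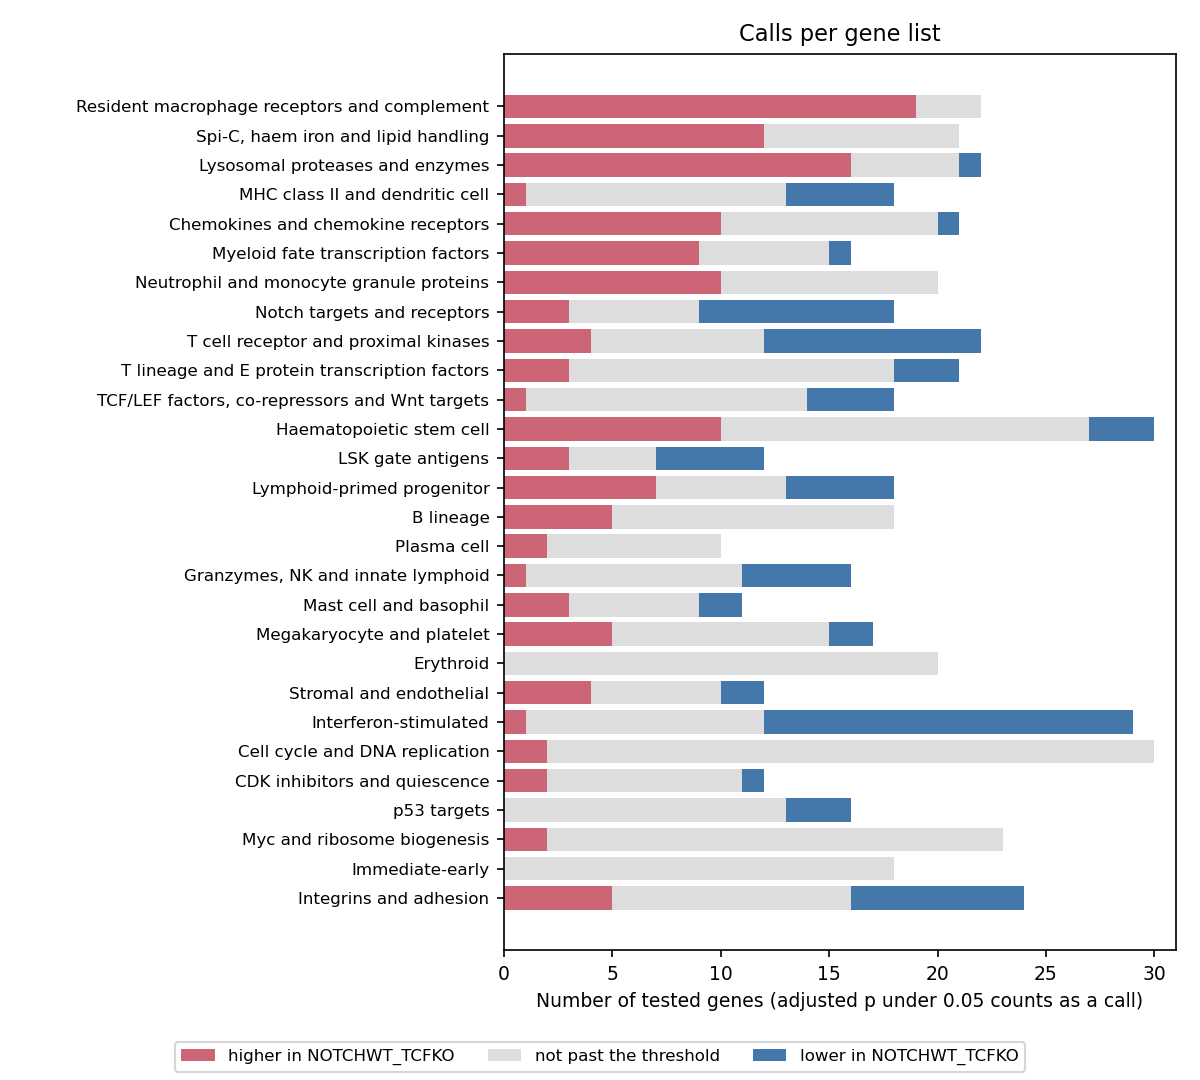
Number of tested genes of each list (horizontal axis) that were higher, lower or not past the threshold in the 3 knockout-labelled against the 3 wild-type-labelled libraries, 1 bar per list. Macrophage genes were higher in 19 of 22 cases, interferon-stimulated genes lower in 17 of 29, and stem cell genes stood on both sides.

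Macrophage-type transcripts were mostly under 1 CPM in the wild-type-labelled libraries and mostly well above that in the knockout-labelled ones. In all 3 knockout-labelled libraries 16 of the tested genes exceeded 10 CPM, and 14 of these were among those called higher. Of 25 receptor and complement genes of resident macrophages 22 could be tested, and 19 were higher, against 10.8% of all genes. By edgeR, DESeq2 and limma-voom alike 19 were higher and 0 lower, and 0 were lower at an unadjusted p under 0.05 as well. The median log2 fold change of the 22 was 6.87, or 5.28 with the 2 genes that had no count in the wild-type-labelled libraries set to their bound. In the wild-type-labelled libraries 14 of the 22 were under 1 CPM in every library. Genes at that level could hardly be called lower, so the count of 0 lower says little about them. The 3 tools also used the same counts. The 3 untested members, Vsig4, Marco and Folr2, had 42, 49 and 50 counts in the knockout-labelled libraries together and 0 in the wild-type-labelled ones. In bulk samples a change in the number of cells of a type and a change in RNA per cell cannot be told apart.

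The complement genes C1qa, C1qb and C1qc encode the 3 chains of C1q, the molecule that starts the classical complement pathway, and lie side by side on mm10 chromosome 4 between 136880129 and 136898803. C1qa was at 0.115, 0.298 and 0.28 CPM in the wild-type-labelled and at 31.1, 40.5 and 34.8 CPM in the knockout-labelled libraries. Its change was 7.24 ± 0.59 (adjusted p = 2.74e-05). C1qb and C1qc, with 27.3 to 36.6 CPM in the knockout-labelled libraries, changed by 6.91 ± 0.89 (adjusted p = 0.000575) and 7.62 ± 0.71 (adjusted p = 6.47e-05). No library of one group came near the range of the other for any of the 3 genes. Side-group levels of C1qa were 0.489, 1.34 and 2.27 CPM under the label NICD_TCFWT and 0.45, 0.46 and 0.797 CPM under NICD_TCFKO.

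Secreted proteins of tissue macrophages had the largest ratios. Fcna, a ficolin that binds sugars on microbes, was at 36, 49.7 and 37.6 CPM in the knockout-labelled libraries, from 4783 counts, against 1 count in the wild-type-labelled ones. The ratio of 4420 has a 95% counting interval from 792 to 174000 (adjusted p = 4.01e-06). Cd5l, which encodes an apoptosis inhibitor secreted by macrophages, was at 28.2, 30.7 and 21.8 CPM against 1 count, a ratio of 2880 with an interval from 517 to 114000 (adjusted p = 4.4e-06). Both intervals are exact binomial and cover counting error only.

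Among surface receptors Vcam1, an adhesion molecule of central macrophages and stroma, was at 1.53, 1.12 and 1.28 CPM in the wild-type-labelled and 153, 182 and 112 CPM in the knockout-labelled libraries, a change of 6.82 ± 0.64 (adjusted p = 0.000118). Mrc1, the mannose receptor, rose from 0.115, 0.198 and 0.07 CPM to 71.1, 77.9 and 55 CPM, a change of 9.08 ± 0.68 (adjusted p = 2.07e-05). Siglec1, the sialic acid receptor CD169, changed by 9.01 ± 0.87 (adjusted p = 8.82e-05), and Mertk, a receptor for dying cells, by 7.94 ± 0.51 (adjusted p = 4.22e-06). Neither Siglec1 nor Mertk reached 0.1 CPM in any wild-type-labelled library. Adgre1, which encodes the F4/80 antigen, was at 21.7, 30.2 and 17.8 CPM in the knockout-labelled libraries and changed by 6.92 ± 0.95 (adjusted p = 0.000839). Cd163, the haemoglobin scavenger receptor, was already at 3.26, 3.14 and 2.85 CPM in the wild-type-labelled libraries and changed by 3.37 ± 0.22 to 23.4, 42.4 and 30.2 CPM (adjusted p = 4.28e-06). The high-affinity IgG receptor gene Fcgr1 changed by 5.75 ± 0.43 (adjusted p = 1.27e-05). Timd4, a receptor for phosphatidylserine, and Msr1, a scavenger receptor, had 229 and 99 counts against 0, at least 20.1-fold and 8.74-fold higher with 3 counts set per wild-type-labelled library.

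The 3 tested members that missed the threshold include Csf1r, the receptor for the growth factor of macrophages. Csf1r was at 66, 94 and 42.9 CPM in the wild-type-labelled and at 65.7, 117 and 34.2 CPM in the knockout-labelled libraries, with a change of 0.09 ± 0.62 (adjusted p = 0.936). Its sign turned without wild-type-labelled library 3 (-0.14) or knockout-labelled library 2 (-0.44). Maf, a transcription factor of macrophages, changed by 0.25 ± 0.25 (adjusted p = 0.53) and the fractalkine receptor gene Cx3cr1 by -0.77 ± 0.71 (adjusted p = 0.49). All 3 were at several CPM or more in the wild-type-labelled libraries, where 14 of the 19 genes that rose were under 1 CPM in every library.

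Promoters of the genes that rose in this list were searched for GAGGAAG, a core of sites bound by the myeloid factor PU.1, on either strand (CTTCCTC on the other), over the 250 bases before the RefSeq start. Of the 19 genes 13 had a promoter in the RefSeq table (GRCm38.p6), and 8 of the 13 (61.5%) held the motif, against 10.6% of all 32851 promoters. They are Axl, C1qc, Cd5l, Clec12a, Fcgr1, Fcna, Mrc1 and Trem2. Stretches of 3, chosen among these 8, are shown with the motif in capitals. Siglec1, Mertk, C1qa and Vcam1, which also rose strongly, are not among the 8, for want of the motif or of a promoter to search. A match describes letters in a window and not a bound site. In the stretch of Fcna 2 of 3 motifs overlap. Counting back from the start, the stretches are chr2:25628104-25628174 on the minus strand for Fcna, chr3:87357761-87357880 on the plus strand for Cd5l and chr2:14229224-14229394 on the plus strand for Mrc1.
Fcna: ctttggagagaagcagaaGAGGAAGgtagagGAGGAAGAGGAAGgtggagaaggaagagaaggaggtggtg
Cd5l: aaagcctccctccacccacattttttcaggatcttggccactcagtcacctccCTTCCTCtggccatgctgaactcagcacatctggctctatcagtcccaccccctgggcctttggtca
Mrc1: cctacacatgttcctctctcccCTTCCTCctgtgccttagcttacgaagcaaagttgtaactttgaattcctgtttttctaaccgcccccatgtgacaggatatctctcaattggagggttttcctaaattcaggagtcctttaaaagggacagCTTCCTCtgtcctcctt

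**Figure D2:**
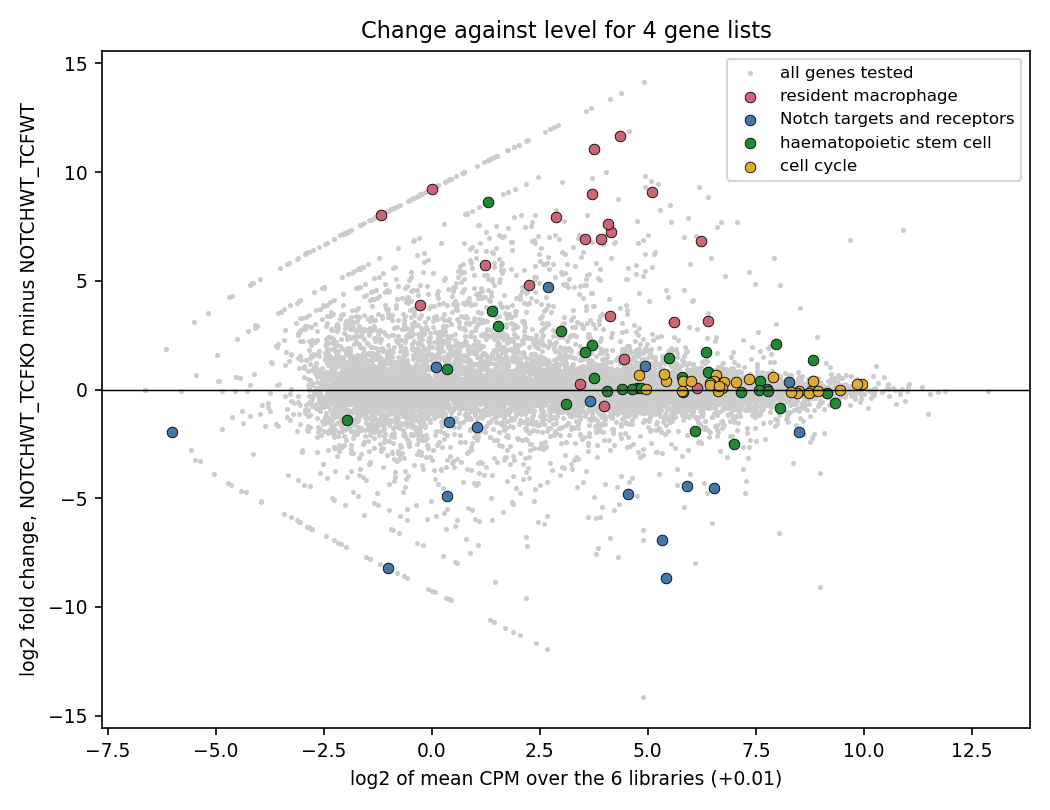
Log2 fold change (vertical axis, knockout-labelled minus wild-type-labelled) against the log2 of the mean CPM over the 6 libraries plus 0.01 (horizontal axis), 1 point per gene, with 4 lists in colour over all 16024 genes in grey. Macrophage genes lie mostly above 3, several Notch targets below -4, stem cell genes on both sides of 0 and cell cycle genes close to 0.

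Genes for haem, iron and lipid handling rose beside the receptors, but less uniformly. Of 21 tested 12 (57.1%, against 10.8% of all genes) were higher and 0 lower, with a median log2 fold change of 0.808. edgeR, DESeq2 and limma-voom each gave 0 lower, also at an unadjusted p under 0.05. In every wild-type-labelled library 5 of the 21 were under 1 CPM, where a fall could hardly be called. Without knockout-labelled library 3, or with Y-linked transcripts as a covariate, 1 gene was lower. Spic, the transcription factor needed for iron-recycling macrophages of spleen and marrow, was at 4.44, 3.4 and 3.97 CPM in the wild-type-labelled and at 12.2, 10.3 and 11.4 CPM in the knockout-labelled libraries, a change of 1.52 ± 0.18 (adjusted p = 0.000247). Hmox1, the haem oxygenase that frees iron from haem, was at 1.33, 1.36 and 1.38 CPM against 66.4, 63.9 and 47.8 CPM and changed by 5.45 ± 0.34 (adjusted p = 4.01e-06). Both genes had narrow and separate ranges in the 2 groups.

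The gene Slc40a1, which encodes the iron exporter ferroportin, was at 116, 138 and 75.1 CPM in the knockout-labelled libraries but at 9.75, 1.85 and 33 CPM in the wild-type-labelled ones. With this spread its change of 2.88 ± 1.00 missed the threshold (adjusted p = 0.073), although the groups did not overlap, and it passed in 5 of 15 alternatives: without wild-type-labelled library 3 (adjusted p = 0.0345), by DESeq2 (0.0127), by limma-voom (0.00663), with the replicate block (0.0255) and with the Y-linked covariate (0.0381). In the lipid genes Apoe, a carrier of cholesterol, rose from 12.8, 13.2 and 14.5 CPM to 132, 174 and 161 CPM, a change of 3.53 ± 0.29 (adjusted p = 3.78e-05). Lpl, lipoprotein lipase, changed by 6.81 ± 0.46 (adjusted p = 6.25e-06), and Pparg, the nuclear receptor that drives lipid uptake, by 4.20 ± 0.49 (adjusted p = 0.000235). Blvrb, Blvra and Slc48a1, which act in haem breakdown and transport, changed by 0.57, 0.27 and 0.15 and did not pass (adjusted p = 0.647, 0.117 and 0.216).

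Lysosomal genes were expressed in both groups and shifted by small steps. Of 22 tested 16 (72.7%) were higher and 1 (4.55%), the mannosidase gene Man2b1, lower, against 10.8% and 10.5% of all genes. The median was 0.678, and without knockout-labelled library 1 Man2b1 was not called. Ctsb, the protease cathepsin B, was at 114, 118 and 108 CPM in the wild-type-labelled and at 325, 438 and 284 CPM in the knockout-labelled libraries, a change of 1.63 ± 0.14 (adjusted p = 3.91e-05). Hexa, a hexosaminidase, changed by 1.09 ± 0.14 (adjusted p = 0.000367), Ctsl, cathepsin L, by 0.97 ± 0.17 (adjusted p = 0.00289) and Gusb, a glucuronidase, by 0.41 ± 0.07 (adjusted p = 0.00314). Ctsh, cathepsin H, rose most among the named proteases, by 3.83 ± 0.66 (adjusted p = 0.0031).

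Several genes of chemokines and their receptors were higher as well. Of 21 tested 10 (47.6%) were higher and 1 (4.76%), Cxcl10, lower, against 10.8% and 10.5% of all genes. The higher ones were the chemokines Ccl9, Ccl3, Ccl6 and Ccl4 and the receptors Ccr3, Cxcr3, Cxcr2, Cxcr4, Ccr7 and Ccr2. The count of higher genes was 6, 5 and 5 without wild-type-labelled library 1, 2 or 3, and Cxcl10 was not called without wild-type-labelled library 1 or 3 or knockout-labelled library 3. Ccl9, a chemoattractant of myeloid cells, was at 0.461, 0.76 and 1.31 CPM in the wild-type-labelled and 124, 152 and 62.5 CPM in the knockout-labelled libraries, a change of 7.02 ± 0.63 (adjusted p = 9.97e-05). Ccr3, the eotaxin receptor of eosinophils, was at 23.6, 28 and 21.1 CPM in the knockout-labelled libraries and changed by 5.32 ± 0.45 (adjusted p = 2.74e-05). Ccl3 and Ccl6 changed by 4.19 ± 0.45 (adjusted p = 0.000199) and 5.84 ± 0.90 (adjusted p = 0.00158).

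Granulocyte and monocyte genes were also among those that rose. Transcription factors of myeloid fate were higher for 9 of 16 genes and lower for 1, Runx1 (without knockout-labelled library 3, 2 were lower). The shares were 56.2% higher and 6.25% lower, against 10.8% and 10.5% of all genes. Cebpa, which directs granulocyte and monocyte fate, was at 0.144, 0 and 0.0467 CPM in the wild-type-labelled and at 69.7, 79 and 34.7 CPM in the knockout-labelled libraries, a change of 9.81 ± 0.96 (adjusted p = 0.000153). Irf8, a factor of monocyte and dendritic cell fate, was at 7.79, 4.17 and 9.62 CPM against 114, 198 and 63.9 CPM and changed by 4.11 ± 0.75 (adjusted p = 0.00499). Both genes were lowest in knockout-labelled library 3. Gfi1, a repressor needed for neutrophils, changed by 1.21 ± 0.22 (adjusted p = 0.00338), Cebpb by 2.44 ± 0.38 (adjusted p = 0.00135) and Cebpd by 4.14 ± 0.85 (adjusted p = 0.00628).

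Of 20 granule genes 10 (50%, against 10.8% of all genes) were higher and 0 lower. None was lower by edgeR, DESeq2 or limma-voom or at an unadjusted p under 0.05. In every wild-type-labelled library 6 of the 20 were under 1 CPM, where a fall could hardly be called. The number higher was 6, 6 and 5 without wild-type-labelled library 1, 2 or 3, and 6 by limma-voom. With Y-linked transcripts as a covariate all 20 were called higher. Proteins of primary granules, which are made by promyelocytes, were high in knockout-labelled libraries 1 and 2 and several times lower in library 3. Mpo, myeloperoxidase, was at 35.4, 18.7 and 16.4 CPM in the wild-type-labelled and at 5083, 5344 and 949 CPM in the knockout-labelled libraries, a change of 7.34 ± 0.94 (adjusted p = 0.000821). The proteases of the same granules did likewise. Prtn3, proteinase 3, changed by 6.05 ± 1.02 to 648, 623 and 170.0 CPM (adjusted p = 0.00359), and Ctsg, cathepsin G, by 4.84 ± 0.82 to 484, 483 and 69.3 CPM (adjusted p = 0.0035). Elane, neutrophil elastase, was at 690.3, 828 and 71.6 CPM against at most 0.583 CPM and changed by 10.19 ± 2.12 (adjusted p = 0.00933), a call that limma-voom did not make (adjusted p = 0.184). Csf3r, the receptor for granulocyte colony-stimulating factor, was even over the 3 libraries, at 225, 247 and 263 CPM, and changed by 2.28 ± 0.39 (adjusted p = 0.00311).

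Proteins of later granules were high in a single library. Ltf, lactoferrin, was at 0.317, 411 and 4.22 CPM in the knockout-labelled libraries (adjusted p = 0.0983), and Ngp, a granule protein of maturing neutrophils, at 0.396, 578 and 4.32 CPM (adjusted p = 0.115). The calprotectin gene S100a8 was at 18.7, 593 and 5.84 CPM (adjusted p = 0.0735). None of the 3 passed the threshold, and in each knockout-labelled library 2 stood far above the other 5 libraries. Side-group levels of Mpo were 1253, 2163 and 4676 CPM under the label NICD_TCFWT and 368, 225 and 713 CPM under NICD_TCFKO.

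The PU.1-type motif was also frequent before the granule genes that rose. The 10 promoters searched belong to 9 of the 10 genes. It was found in 7 of these promoters (70%), those of 6 genes: Csf3r, Ctsg, Elane, Ly6c2, Mpo and Prtn3. Stretches of Elane and Prtn3, neighbouring genes on chromosome 10, and of Mpo are shown for comparison with the macrophage genes. They lie at chr10:79886192-79886311, chr10:79879547-79879666 and chr11:87793534-87793584, all on the plus strand.
Elane: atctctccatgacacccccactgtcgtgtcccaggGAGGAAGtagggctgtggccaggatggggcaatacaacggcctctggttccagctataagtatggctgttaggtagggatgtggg
Prtn3: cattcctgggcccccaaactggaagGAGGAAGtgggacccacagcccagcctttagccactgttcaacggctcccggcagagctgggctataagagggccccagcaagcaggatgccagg
Mpo: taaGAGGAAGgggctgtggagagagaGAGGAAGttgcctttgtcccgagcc

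The spread among the 3 knockout-labelled libraries differed from list to list. Macrophage genes summed to 877, 1075 and 641 CPM in the knockout-labelled libraries, against 141, 162 and 124 CPM in the wild-type-labelled ones. The libraries labelled NICD_TCFWT ranged from 110 to 239 CPM and those labelled NICD_TCFKO from 160 to 236 CPM. Within the knockout-labelled libraries the median ratio of the highest to the lowest was 1.43 over the 22 macrophage genes, 20 of which were highest in library 2. The same ratio was 32.7 over the 20 granule genes, 7.93 over 18 B lineage genes, 9.82 over 20 erythroid genes and 14.6 over 10 plasma cell genes. Summed plasma cell genes stood at 566, 6288 and 332 CPM against 133, 161 and 146 CPM, erythroid genes at 1474, 4129 and 1062 CPM against 1083, 676 and 2190 CPM, and B lineage genes at 842, 3155 and 903 CPM against 641, 600 and 731 CPM. Knockout-labelled library 2 was the highest of its group in all of these sums. The part of mature cells of other types in the macrophage values was not tested. Without knockout-labelled library 2, 19 macrophage genes were higher, and without any other single library 20.

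**Figure D3:**
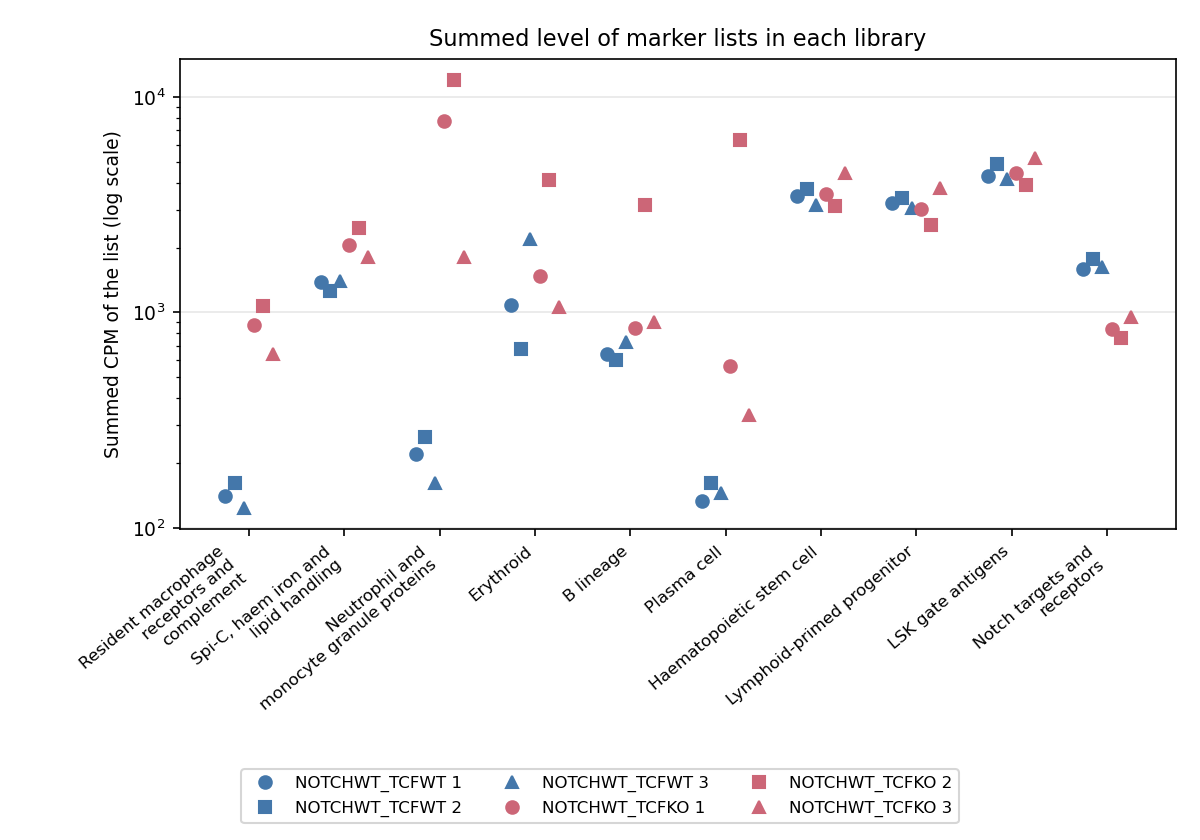
Summed CPM of 10 marker lists (vertical axis, log scale) in each of the 3 wild-type-labelled (blue) and 3 knockout-labelled (red) libraries, 1 point per library. Macrophage sums are 641 to 1075 CPM in all knockout-labelled libraries, plasma cell and erythroid sums stand out in knockout-labelled library 2 (6288 and 4129 CPM), and stem cell sums overlap.

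Nearly all single genes of these cell types shared that order. Knockout-labelled library 2 was the highest of its group for 20 of 20 erythroid, 17 of 18 B lineage and 9 of 10 plasma cell genes. Igha, the constant region of IgA, was at 309.8, 4383 and 146 CPM in the knockout-labelled libraries and Slc4a1, the anion exchanger of red cells, at 3.09, 355 and 4.15 CPM, and neither passed (adjusted p = 0.059 and 0.0742). Of 20 erythroid genes 0 passed in either direction by edgeR, DESeq2 or limma-voom, with 4, 4 and 0 higher at an unadjusted p under 0.05. Without knockout-labelled library 3 edgeR called 1 higher, as it did with a filter at 1 CPM in 3 libraries, and with Y-linked transcripts as a covariate it called 7. Early erythroid genes also varied among the wild-type-labelled libraries, with Car1, a carbonic anhydrase, at 164, 14.7 and 455 CPM. B lineage genes were higher for 5 of 18 tested (27.8%, against 10.8% of all genes), 0 lower (1 at an unadjusted p under 0.05, and 1 by each of DESeq2 and limma-voom). That count was 3 without any single wild-type-labelled library, 2 without knockout-labelled library 2, where 1 gene was lower, and 9 without knockout-labelled library 3, and DESeq2 called 13 and limma-voom 2 higher, and edgeR 13 with the Y-linked covariate. Ebf1, the factor that specifies B cells, had 279 counts against 1, a ratio of 258 with an interval from 45.8 to 10200 (adjusted p = 0.00943), and was at 0.476, 4.2 and 2.5 CPM. Sdc1, the syndecan of plasma cells, was highest in knockout-labelled library 3, at 17.7, 25.1 and 33.1 CPM against 1.44, 2.08 and 1.75 CPM and changed by 3.85 ± 0.52 (adjusted p = 0.000707).

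Mast cell and megakaryocyte genes were divided. Of 11 mast cell and basophil genes 3 were higher and 2 lower (1 and 1 by limma-voom, and 1 lower without wild-type-labelled library 3 or knockout-labelled library 2 or 3). The shares were 27.3% higher and 18.2% lower, against 10.8% and 10.5% of all genes. Prss34, a protease of basophils, was at 0, 0.298 and 0.0467 CPM in the wild-type-labelled and at 24.5, 187 and 14.8 CPM in the knockout-labelled libraries (adjusted p = 0.00426). Hdc, the enzyme that makes histamine, was at 1.44, 1.19 and 1.19 CPM against 66.4, 79.1 and 8.39 CPM (adjusted p = 0.0115). These calls of Prss34 and Hdc were not made by limma-voom. The tryptase gene Tpsb2 had 57 counts against 1 (adjusted p = 0.00418). Cpa3, a mast cell carboxypeptidase, was at 239.6, 238 and 350.4 CPM in the wild-type-labelled and 62.1, 69.4 and 36.4 CPM in the knockout-labelled libraries and fell by 2.30 ± 0.26 (adjusted p = 0.00024). Of 17 megakaryocyte and platelet genes 5 (29.4%) were higher, against 10.8% of all genes. The 2 lower ones (11.8%), Itgb3 and Gp1ba, made up a share near the 10.5% of all genes. The higher count was 3 without any single wild-type-labelled library and 2 without knockout-labelled library 1 or 2. The lower count was 0 without wild-type-labelled library 1 or knockout-labelled library 1 or 3, and 1 without wild-type-labelled library 2 or 3. Pf4, platelet factor 4, was at 0.981, 0.628 and 0.49 CPM against 13.9, 12.4 and 6.23 CPM and rose by 3.95 ± 0.69 (adjusted p = 0.0032). The mast cell proteases Mcpt1, Mcpt2 and Mcpt4, members of a family of similar sequence, were highest in wild-type-labelled library 3 (170.2, 26.3 and 25 CPM) and at most 5.16 CPM in the other 2.

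**Figure D4:**
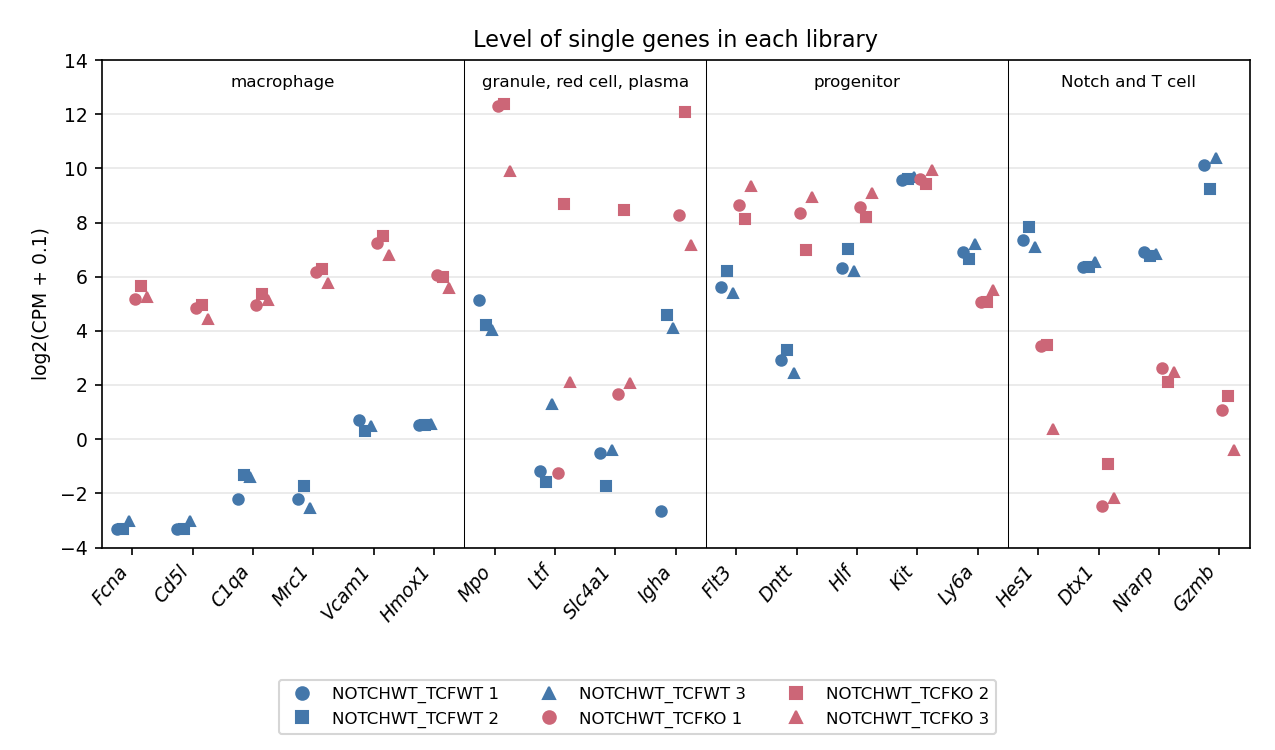
Level of 19 genes as log2(CPM + 0.1) (vertical axis) in each of the 3 wild-type-labelled (blue) and 3 knockout-labelled (red) libraries, 1 point per library. The 6 macrophage genes form tight and separate groups, Ltf, Slc4a1 and Igha are highest in knockout-labelled library 2, and Kit overlaps.

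Progenitor programmes moved in both directions. Of 30 stem cell genes 10 were higher, against 10.8% of all genes, and 3 lower, a share near the 10.5% of all genes, with a median log2 fold change of 0.235. With Y-linked transcripts as a covariate 6 were higher and 4 lower. Their sums, 3532, 3127 and 4423 CPM in the knockout-labelled and 3454, 3744 and 3140 CPM in the wild-type-labelled libraries, overlapped. Within the knockout-labelled libraries 27 of the 30 were highest in library 3, which had the lowest macrophage and granule sums, and 22 were lowest in library 2. The part of mature cells in these levels was not tested.

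Hlf, a transcription factor of stem cells, was at 80.1, 129.7 and 73.2 CPM in the wild-type-labelled and at 378, 293 and 547 CPM in the knockout-labelled libraries, a change of 2.11 ± 0.41 (adjusted p = 0.00595). Hoxa10, a homeobox gene of early progenitors, changed by 2.69 ± 0.43 (adjusted p = 0.00173). Cdkn1c, the cell cycle inhibitor p57, was at 4.89, 2.55 and 7.06 CPM against 0.519, 0.198 and 0.443 CPM and changed by 3.62 ± 0.45 (adjusted p = 0.000326). The imprinted non-coding gene Meg3 had 576 counts against 1, a ratio of 532 with an interval from 95.1 to 21000 (adjusted p = 0.000847). Mecom, which encodes the stem cell factor Evi1, was at 63.6, 52.1 and 80.9 CPM against 23.1, 28.9 and 20.5 CPM, a change of 1.44 ± 0.38 (adjusted p = 0.0249). The call of the gene Mecom was lost without wild-type-labelled library 1 or 3 or knockout-labelled library 1 or 3 (adjusted p = 0.0791, 0.0837, 0.0563 and 0.0594). It was also lost with Y-linked transcripts as a covariate.

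Going the other way, Mycn, a Myc family factor of stem cells, was at 223, 224 and 199.8 CPM in the wild-type-labelled and 33.1, 28.8 and 50.9 CPM in the knockout-labelled libraries and fell by 2.52 ± 0.22 (adjusted p = 4.95e-05). Esam, an adhesion molecule used to mark stem cells, fell by 1.92 ± 0.33 (adjusted p = 0.0031). Procr, the protein C receptor of stem cells, was at 26.8, 34.1 and 17.3 CPM against 21.6, 14.6 and 47.2 CPM, with a change of 0.09 ± 0.52 (adjusted p = 0.922). The Procr value was -0.14 without wild-type-labelled library 3 and -0.50 without knockout-labelled library 3.

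Lymphoid-primed progenitor genes were higher for 7 (38.9%) and lower for 5 (27.8%) of 18, against 10.8% and 10.5% of all genes. Their median was 0.331. Flt3, the cytokine receptor that marks lymphoid-primed progenitors, was at 48.6, 73.9 and 42.3 CPM in the wild-type-labelled and 400.3, 279.8 and 656 CPM in the knockout-labelled libraries, a change of 3.02 ± 0.31 (adjusted p = 0.000164). Dntt, the terminal transferase of early lymphoid cells, was at 7.41, 9.78 and 5.39 CPM against 327, 126 and 492 CPM and changed by 5.39 ± 0.76 (adjusted p = 0.00132). Il7r, the interleukin 7 receptor, changed by 4.70 ± 0.59 to 10.3, 11.3 and 15.9 CPM (adjusted p = 0.000501). Blnk, an adaptor of B cell signalling, had 874 counts against 3, a ratio of 269 with an interval from 91.7 to 1310 (adjusted p = 6.54e-05). Flt3 and Dntt were highest in knockout-labelled library 3 and lowest in library 2, the reverse of the macrophage and granule genes. Bcl11a, a factor needed for lymphoid progenitors, fell by 0.73 ± 0.10 (adjusted p = 0.000494). Under the label NICD_TCFWT Flt3 stood at 569.6, 559 and 515 CPM, and under NICD_TCFKO at 127, 99.4 and 131 CPM.

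Antigens of the LSK gate were higher for 3 (25%) and lower for 5 (41.7%) of 12 genes, against 10.8% and 10.5% of all genes. Ly6a was at 120.3, 101 and 148 CPM in the wild-type-labelled and at 33.1, 33.7 and 45.9 CPM in the knockout-labelled libraries and fell by 1.71 ± 0.25 (adjusted p = 0.00104). Cd48, a marker of multipotent progenitors, was at 298, 361 and 244 CPM against 113, 98.1 and 98.5 CPM and fell by 1.54 ± 0.17 (adjusted p = 0.000179). Cd53, a tetraspanin of leukocytes, fell by 0.71 ± 0.14 (adjusted p = 0.00408). The change of Kit, 0.04 ± 0.12, did not pass (adjusted p = 0.84), and it was -0.08 without knockout-labelled library 3.

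A number of Notch receptors and targets were lower in the knockout-labelled libraries, although both groups carry the label NOTCHWT. Of 18 tested 9 (50%) were lower, against 10.5% of all genes. The 3 higher ones (16.7%, against 10.8% of all genes) were Il7r, Notch4 and Myc. The median was -1.82 (-1.59 with the 2 genes that had no count in the knockout-labelled libraries at their bound). The count of higher genes was 1 without wild-type-labelled library 1 or 3 or knockout-labelled library 1 or 3. Notch1 (ENSMUSG00000026923), on chromosome 2 from 26457903 to 26516663, stood at 541, 622 and 549 CPM in the wild-type-labelled and at 145, 104 and 197 CPM in the knockout-labelled libraries and fell by 1.94 ± 0.22 (adjusted p = 0.000244). Notch3, a second receptor and itself a target, fell by 4.80 ± 0.43 (adjusted p = 6.47e-05). The feedback inhibitor Nrarp was at 121, 108 and 114 CPM against 6.02, 4.2 and 5.5 CPM and fell by 4.45 ± 0.16 (adjusted p = 1.46e-07).

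Dtx1, a ubiquitin ligase induced by Notch, was at 81.5, 82.8 and 91.9 CPM in the wild-type-labelled and at 0.0793, 0.425 and 0.121 CPM in the knockout-labelled libraries and fell by 8.67 ± 0.54 (adjusted p = 6.46e-06). The repressors Hes1 and Hey1 fell by 4.53 ± 0.80 (adjusted p = 0.00428) and 6.91 ± 0.94 (adjusted p = 0.00104). Under the label NICD_TCFKO Nrarp stood at 75.7, 70.7 and 59.9 CPM, and under NICD_TCFWT at 6.79, 6.51 and 5.17 CPM. How far a difference in Notch signalling contributes to any other difference between the groups was not tested.

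The 6 promoters found for the 9 lower Notch genes were searched for TGGGAA, a core of sites of the Notch cofactor RBPJ, on either strand. It was in 2 of 6 (33.3%), those of Hes5 and Hey2, against 21.6% of all promoters, 3 of 13 (23.1%) of the macrophage and 5 of 10 (50%) of the granule promoters. The PU.1-type motif was in 1 of the 6 (16.7%). The stretch of Hes5, at chr4:154960683-154960863 on the plus strand, holds a pair of motifs in opposite orientation, shown in capitals.
Hes5: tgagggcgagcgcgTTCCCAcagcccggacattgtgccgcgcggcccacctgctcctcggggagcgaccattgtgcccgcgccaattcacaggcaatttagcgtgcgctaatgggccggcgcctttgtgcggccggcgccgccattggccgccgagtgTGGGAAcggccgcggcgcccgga

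T cell receptor genes and their kinases were lower for 10 and higher for 4 of 22 (2 higher by limma-voom and without wild-type-labelled library 1, 2 or 3 or knockout-labelled library 1 or 2). The shares were 45.5% lower and 18.2% higher, against 10.5% and 10.8% of all genes. Trbc2, a constant region of the receptor beta chain, was at 146, 121 and 143 CPM in the wild-type-labelled and at 0.0793, 1.49 and 0.097 CPM in the knockout-labelled libraries and fell by 7.96 ± 0.82 (adjusted p = 0.000242). Its near-identical neighbour Trbc1 fell by 6.82 ± 0.88 (adjusted p = 0.000818), and reads may be split between them. Fyn, a kinase of receptor signalling, fell by 1.49 ± 0.14 (adjusted p = 5.47e-05) and the adaptor Lcp2 by 0.96 ± 0.09 (adjusted p = 7.11e-05). The CD3 chains are signalling chains without which the receptor is not displayed. Of these Cd3e was low in both groups, at 0.0288, 0.0331 and 0.163 CPM against 0, 1.73 and 0.0242 CPM. The genes called higher were Cd4, Cd28, Cd247, which encodes another signalling chain of the receptor, and Cd8a. Cd4, also carried by some myeloid and progenitor cells, rose by 2.71 ± 0.27 to 6.13, 9.29 and 7.44 CPM (adjusted p = 8.31e-05).

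Among T lineage factors Ikzf2, the zinc finger protein Helios, fell by 1.16 ± 0.08 (adjusted p = 8.77e-06), while Zbtb16, the factor PLZF, rose by 4.21 ± 0.45 (adjusted p = 0.000158). The list had 3 higher and 3 lower of 21, or 14.3% in each direction against 10.8% and 10.5% of all genes, with 1 lower without wild-type-labelled library 1 or knockout-labelled library 1 and 5 higher with the Y-linked covariate. Of the TCF/LEF family and its partners, 1 of 18 (5.56%) was higher, against 10.8% of all genes. Of the same 18, 4 (22.2%), including Tcf7 itself, were lower, against 10.5% of all genes. The number lower was 2 without wild-type-labelled library 1 or 2 or knockout-labelled library 1. The co-repressor gene Tle1 fell by 0.89 ± 0.18 (adjusted p = 0.00544) and Tcf7l1, a paralogue of Tcf7, rose by 1.86 ± 0.44 (adjusted p = 0.0122). Lef1, another member of the family, was at most 1.41 CPM in any of the 6 libraries (adjusted p = 0.156). Gata3, the T lineage factor, changed by -0.51 ± 0.27 (adjusted p = 0.21).

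Gzmb, the protease granzyme B of killer cells, was at 1102, 600.2 and 1324 CPM in the wild-type-labelled and at 2.03, 2.89 and 0.655 CPM in the knockout-labelled libraries and fell by 9.09 ± 0.61 (adjusted p = 1.6e-05). Gzmc had 134 counts against 0 and was at least 12.7-fold lower (adjusted p = 0.000975). Fasl, the death receptor ligand, fell by 4.38 ± 0.90 (adjusted p = 0.00665) and Nkg7, a protein of cytotoxic granules, by 0.79 ± 0.15 (adjusted p = 0.00478). Of 16 genes of the list 5 were lower and 1, Zbtb16, higher (2 without wild-type-labelled library 2 or knockout-labelled library 3, 2 by limma-voom and 4 by DESeq2). The shares were 31.2% lower and 6.25% higher, against 10.5% and 10.8% of all genes. Klrd1, a killer cell receptor gene of the same list, changed by 0.03 ± 0.60 and did not pass (adjusted p = 0.983).

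Interferon-stimulated genes were lower for 17 of 29 and higher for 1, Rsad2 (2 without knockout-labelled library 3). The shares were 58.6% lower and 3.45% higher, against 10.5% and 10.8% of all genes. DESeq2 and limma-voom also gave 17 lower. Isg15, a ubiquitin-like protein, was at 27.8, 19.3 and 39.3 CPM in the wild-type-labelled and at 6.87, 7.22 and 9.43 CPM in the knockout-labelled libraries and fell by 1.88 ± 0.30 (adjusted p = 0.00177). Usp18, which removes it from proteins, fell by 1.56 ± 0.26 (adjusted p = 0.00224) and the RNA sensor gene Oas1a by 0.70 ± 0.12 (adjusted p = 0.00314). Rsad2, the antiviral enzyme viperin, rose by 1.77 ± 0.26 (adjusted p = 0.000992). The level in the wild-type-labelled libraries was uneven, with sums of 2945, 1953 and 3991 CPM against 1252, 1127 and 1426 CPM. The labels give poly(I:C) for both groups and no time between injection and sort.

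MHC class II genes are expressed by dendritic cells and some macrophages. H2-Ab1, a class II beta chain, was at 185, 90.1 and 214 CPM in the wild-type-labelled and at 43.6, 39.8 and 61.3 CPM in the knockout-labelled libraries and fell by 1.76 ± 0.38 (adjusted p = 0.00999). Of 18 genes of class II and dendritic cells 5 (27.8%) were lower and 1 (5.56%), Clec9a, higher, against 10.5% and 10.8% of all genes. DESeq2 called 7 lower and 6 higher, limma-voom 4 and 0, and edgeR with the Y-linked covariate 2 and 6. The count of lower genes was 2 without knockout-labelled library 1 and 3 without knockout-labelled library 2, and Clec9a was not called without knockout-labelled library 1 or 2 or any single wild-type-labelled library.

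Adhesion and stromal genes also split. Itgal, the alpha chain of the integrin LFA-1, was at 605, 695 and 583 CPM in the wild-type-labelled and 138, 180.3 and 133 CPM in the knockout-labelled libraries and fell by 2.06 ± 0.12 (adjusted p = 3.54e-06). Itgb5, an integrin beta chain of phagocytes, rose by 5.55 ± 0.60 to 24.3, 19.3 and 43 CPM (adjusted p = 0.000196). Of 24 adhesion genes 8 were lower (5 without wild-type-labelled library 1 or knockout-labelled library 1) and 5 higher. The shares were 33.3% lower and 20.8% higher, against 10.5% and 10.8% of all genes. Pdgfrb, a growth factor receptor best known from perivascular cells, was at 919, 1022 and 889 CPM in the wild-type-labelled and at 60, 49 and 90.6 CPM in the knockout-labelled libraries and fell by 3.83 ± 0.21 (adjusted p = 2.66e-06). Of 12 stromal and endothelial genes tested 2 (16.7%), Pdgfrb and Kdr, were lower and 4 (33.3%) higher, with a median of 2.37. Over all genes the shares were 10.5% lower and 10.8% higher. The count of higher genes was 2, 2 and 1 without wild-type-labelled library 1, 2 or 3. The collagen gene Col1a2 was at 1.41, 0.826 and 0.91 CPM against 7.45, 16.4 and 7.08 CPM and changed by 3.29 ± 0.79 (adjusted p = 0.015), while Col1a1, at 0.231, 0.331 and 0.35 CPM against 0.343, 4.17 and 0.218 CPM, did not pass (adjusted p = 0.0991). For the gene Col1a2 the adjusted p was 0.0573 and 0.0591 without wild-type-labelled library 2 or 3. Emcn, an endothelial mucin also found on stem cells, rose by 4.77 ± 0.43 to 21.8, 15.3 and 24.8 CPM (adjusted p = 5.04e-05).

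Of 30 cell cycle genes 2 were higher, or 6.67% against 10.8% of all genes, with a median of 0.27, and 0 lower by edgeR, DESeq2 or limma-voom, also at an unadjusted p under 0.05. The count higher was 0 without wild-type-labelled library 1 or knockout-labelled library 1 or 2, 1 without wild-type-labelled library 2 and 8 without knockout-labelled library 3, and DESeq2 called 5. Mki67, a marker of cycling cells, was at 905, 721 and 1068 CPM in the wild-type-labelled and at 1091, 1184 and 961 CPM in the knockout-labelled libraries, which overlapped, and its change was 0.26 ± 0.15 (adjusted p = 0.227). Of 16 p53 targets 3 were lower, or 18.8% against 10.5% of all genes (1 without wild-type-labelled library 1 or knockout-labelled library 1 or with the Y-linked covariate, and 5 by DESeq2), and the nuclease gene Aen fell by 0.46 ± 0.11 (adjusted p = 0.0123). Immediate-early genes, which also answer to handling of cells, were all lowest in knockout-labelled library 3. Of these 18 genes 0 were called by edgeR or limma-voom and 1 by DESeq2, with 1, 0 and 2 at an unadjusted p under 0.05, and without knockout-labelled library 3 edgeR called 2.

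Some of the largest falls were seen in genes outside the lists. Itln1, a lectin of epithelia, was at 12.6, 12 and 13.5 CPM in the wild-type-labelled libraries and had 0 counts in the knockout-labelled ones, at least 129-fold lower (adjusted p = 6.08e-07). Klk1b22, a kallikrein of a family with near-identical members, and Ccnb1ip1, a protein of meiotic recombination, also had 0 counts, at least 109-fold and 51.7-fold lower (adjusted p = 0.000118 and 0.00326). Scin, an actin-severing protein, was at 552, 429.7 and 575 CPM against 5.94, 5.95 and 4.27 CPM and fell by 6.59 ± 0.20 (adjusted p = 5.27e-08). Robo1, a guidance receptor, fell by 6.94 ± 0.45 (adjusted p = 6.25e-06) and the collagen gene Col18a1 by 6.12 ± 0.49 (adjusted p = 4.4e-05). Side-group levels of Scin were 8.39, 7.87 and 6.95 CPM under the label NICD_TCFWT and 175, 217 and 156 CPM under NICD_TCFKO.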

How the data were processed

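RNA of sorted LSK cells was sequenced in 12 libraries of 4 groups of 3. The values used are raw read counts per gene, which the authors deposited without normalization. The submitters' processing notes name featureCounts 1.4.4, HISAT2, the build mm10, edgeR 3.28.0, limma, cutadapt 1.9.1 and bcl2fastq 2.17, without the role of each. Whether counting used strand is not given in the sources used here, so antisense and overlapping genes cannot be told apart. Of 39017 genes, 23687 had a count, and 16024 passed edgeR's filterByExpr by group. Library totals of the 6 libraries ranged from 30453271 to 43790674 counts.

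Counts were fitted over all 12 libraries, which share the estimate of spread, with edgeR 4.0.16 (TMM scaling, robust quasi-likelihood fit, R 4.3.3), and adjusted by Benjamini-Hochberg at 0.05. SEs were derived from each log2 fold change and its F statistic. Where a group had 1 to 3 counts, a ratio with an exact 95% interval replaces the fold. Where it had 0, a bound was set at 3 counts per library. Genes were named by a rule: Tcf7, Notch1 and a set of genes known for their roles, whatever their values; the largest called changes without overlap of the groups, 15 in each direction, among genes that averaged 5 CPM or more on their higher side (leaving out Gm-numbered, Rik, pseudogene, antigen receptor segment and sex-linked genes); and up to 5 called members of each list with the smallest p. Other genes printed, among them those not past the threshold, were chosen after their values were seen. The members and gene lists were chosen with earlier results of these data known. The fit was tested on simulated counts. Alternatives were other scalings, filters, DESeq2 1.42.0, limma-voom 3.58.1, the 6 libraries alone, a replicate block, a covariate for Y-linked transcripts and each library left out. Promoters came from RefSeq (GRCm38.p6). Some genes are not reported here.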

Additional observations from a re-analysis of the deposited data

How the results depend on the processing

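Leaving out each library in turn gave 1118 to 1993 higher and 1008 to 1854 lower genes, against 1738 and 1675. Other scalings, filters and tools stayed within 1.5 times these counts, with DESeq2 at 2304 and 2018 and limma-voom at 1558 and 1608. Of 149 named genes, 104 kept their call in all alternatives and 45 did not. The sign turned for 3 genes that were not called. The gene Csf1r, at 0.09, ranged from -0.44 to 0.46 with 1 library left out. The gene Kit, at 0.04, ranged from -0.083 to 0.14 and was -0.10 with the Y-linked covariate. The gene Procr, at 0.09, ranged from -0.50 to 0.38 and was -0.68 with the Y-linked covariate. The cause was not tested.

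Whether replicate numbers pair the samples could not be decided. With each group's mean taken out of the log2 CPM, correlations between same-numbered libraries of the 2 groups were 0.00752, -0.151 and -0.206. Differently numbered libraries gave -0.0626 to 0.212. Between the side groups the same-numbered values were 0.312, 0.0976 and 0.458. With 3 libraries per group such values are tied to each other and cannot exclude a pairing. With the replicate block 1479 genes were higher and 1425 lower.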
